A study of Mus musculus with 5 samples.

Results

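The 8 genes described here encode the macrophage growth factors and cytokines that kidney tubules are known to make, together with 1 receptor. They are Csf1, Il34, Ccl2, Cxcl1, Cx3cl1, Lif and Il18, which encode secreted or membrane-held ligands, and Csf1r, which encodes the receptor for the Csf1 and Il34 proteins. The genes were picked by symbol, as a set of tubular ligands with the receptor, and all 8 were found among the 27998 genes of each of the 5 libraries. The ligands were read by tubule class and time after injury, and Csf1r was read by cell class.

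After ischaemia the tubule epithelium is not only damaged but also signals to the immune system. CSF1 and IL-34 both act on CSF1R to keep macrophages alive and dividing, CCL2 draws monocytes, CXCL1 draws neutrophils, CX3CL1 tethers and draws cells that carry CX3CR1, LIF acts through gp130 and STAT3, and IL-18 is an inflammasome-processed cytokine of the IL-1 family. Many of these genes are known targets of NF-kB.

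The measurements are single-nucleus RNA counts from kidneys of male mice aged 10 to 12 weeks. All mice carried Six2-TGC, Rosa26rtTA and pTRE-H2BeGFP and ate doxycycline food at 625 mg/kg from soon after birth, so that nuclei of the Six2 lineage, which gives rise to the nephron but not to the collecting duct or stroma, were marked by a green histone. In 4 groups the nuclei were sorted as GFP positive, from kidneys with no injury and from kidneys taken 64 h, 96 h and 28 d after both renal pedicles were clamped (ischaemia-reperfusion injury, IRI). In the remaining group they were sorted as GFP negative from kidneys with no injury. Creatinine was 0.375, 0.312 and 0.144 mg/dL and blood urea nitrogen 37.0, 91.8 and 31.7 mg/dL in the 3 IRI groups, in time order, against 0.122 and 26.1 mg/dL in both groups with no injury. The groups without injury carry the same serum values and may share animals. The labels call them no injury while the design text speaks of sham surgery, so whether they were operated on is not clear.

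Each group is 1 library, the number of animals in it is not given, and no difference below has a replicate check. Intervals are 95% counting intervals only (exact Poisson for a level, exact conditional for a ratio of levels). A level is in CPM, the UMIs of a gene per 1000000 UMIs of the nuclei summed. It compares a gene between sums of nuclei, not 1 gene with another. Where a sum held 0 UMIs, the limit given is the level that 3 UMIs would have, which lies below the upper end of the exact interval. The libraries held 3012 to 3508 barcodes and 1922002 to 7153971 UMIs, with a median of 507 UMIs per nucleus after 96 h and 964.5 to 1793.5 in the others, so the 96 h library was the shallowest. Pairs of libraries shared 9 to 20 barcodes. Nuclei were clustered without the 8 genes and clusters were named from marker lists. The GFP-negative library, labelled non-nephron, also held 383 proximal tubule-like and 485 thick ascending limb-like nuclei.

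The classes that carry the results differed in size between libraries. In time order the GFP-positive libraries held 2249, 1728, 379 and 1985 proximal tubule-like nuclei. Injured tubule-like nuclei, led by Havcr1 in 1 cluster and by Vcam1 in the other, numbered 115, 305, 555 and 329 at those times, and the GFP-negative library held 0. Of them 5, 223, 486 and 24 lay in the Havcr1-led and 110, 82, 69 and 305 in the Vcam1-led cluster, so the class was mostly Vcam1-led without injury and after 28 d and mostly Havcr1-led after 64 h and 96 h. Parietal epithelium was the next best list for both clusters, and for the Vcam1-led cluster it scored 2.253 against 2.626 for injured tubule. A further cluster led by Fgg and C3 scored 1.429 for proximal tubule and 1.343 for injured tubule and stayed unnamed. It held 13, 146, 1674 and 176 nuclei, and so 1674 of the 3202 nuclei kept in the 96 h library.

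Csf1 and Cxcl1 had higher levels in injured tubule-like than in proximal tubule-like nuclei of each GFP-positive library, as did Il34, and the 250 bases before the RefSeq starts of the first pair are shown (GRCm38.p6). RefSeq windows were matched for 5 of the 8 genes (Csf1, Cxcl1, Cx3cl1, Lif and Il18). Capitals mark matches to the NF-kB consensus, searched on both strands.
Csf1, chr3:107760470-107760719, minus strand: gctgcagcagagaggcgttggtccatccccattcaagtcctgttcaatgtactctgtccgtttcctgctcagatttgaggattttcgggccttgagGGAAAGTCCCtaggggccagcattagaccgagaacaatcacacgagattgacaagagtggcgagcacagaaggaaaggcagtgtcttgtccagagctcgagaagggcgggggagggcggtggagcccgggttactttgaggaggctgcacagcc
Cxcl1, chr5:90890995-90891244, plus strand: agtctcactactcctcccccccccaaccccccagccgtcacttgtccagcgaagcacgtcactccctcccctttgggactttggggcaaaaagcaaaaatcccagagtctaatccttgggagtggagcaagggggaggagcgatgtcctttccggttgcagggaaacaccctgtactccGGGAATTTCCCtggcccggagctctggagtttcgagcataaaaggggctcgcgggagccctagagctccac
The Csf1 window held 1 match, beginning 154 bases before the start, and the Cxcl1 window held 2 overlapping matches, beginning 71 and 70 bases before it. Of 32851 mouse promoter windows of this length, 7.25% held an NF-kB match. Neither window held an AP-1 match (TGANTCA, in 6.75% of windows) or a STAT match (TTCNNNGAA, in 7.02%). Of the windows not shown, that of Lif held 1 NF-kB and 1 AP-1 match, beginning 178 and 228 bases before the start, and those of Cx3cl1 and Il18 held 0 matches of the 3 motifs. A match describes letters only and says nothing of binding.

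Csf1, the gene for macrophage colony-stimulating factor, lies on chromosome 3 (107741048 to 107760469, GRCm38). In proximal tubule-like nuclei its level was 4.18 CPM without injury (interval 2.55 to 6.45; 20 UMIs), 28.5 after 64 h (22.4 to 35.7; 75 UMIs), 26.7 after 96 h (10.7 to 55.0; 7 UMIs) and 7.07 after 28 d (4.04 to 11.5; 16 UMIs). In injured tubule-like nuclei the same gene stood at 115 CPM without injury (74.5 to 170), 231 after 64 h (196 to 269), 154 after 96 h (120 to 194) and 150 after 28 d (117 to 190). The intervals of the classes did not overlap in any of the 4 GFP-positive libraries, and the injured tubule-like nuclei were the high ones each time.

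Relative to the library without injury, the Csf1 level of proximal tubule-like nuclei was 6.81 times higher after 64 h (4.12 to 11.8), 6.39 times higher after 96 h (2.28 to 15.7) and 1.69 times after 28 d (0.820 to 3.44), the last with an interval that holds 1. The class was not made of the same clusters at each time. At 64 h, 1343 of its 1728 nuclei lay in a cluster led by Folh1, which held 90 of the 2249 without injury, where clusters led by Slco1a1 (841 nuclei) and Slc5a12 (616) were the largest. Within the Folh1-led cluster Csf1 stood at 32.0 CPM after 64 h (25.0 to 40.5; 70 UMIs) and 36.9 CPM without injury (14.8 to 76.1; 7 UMIs in 3 nuclei). Within the Slc5a12-led cluster it stood at 4.13 CPM after 64 h (1 UMI) and 3.74 CPM without injury (4 UMIs). In the Gm26870-led cluster it stood at 31.3 CPM after 64 h (8.54 to 80.2; 4 UMIs) and 3.18 CPM without injury (0.0805 to 17.7; 1 UMI). The difference over the whole class was thus not seen within the first of these clusters, and the counts in the others were too low to tell.

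Set against proximal tubule-like nuclei of its own library, the injured tubule-like class had a Csf1 level 27.6 times higher without injury (14.7 to 52.4), 8.11 times after 64 h (6.13 to 10.8), 5.76 times after 96 h (2.66 to 14.8) and 21.3 times after 28 d (12.2 to 39.2). Thick ascending limb-like nuclei of the 64 h library had 1 Csf1 UMI in 202 nuclei (4.32 CPM). They are 1 class at 1 time and no direct measure of free RNA. The Fgg and C3-led cluster lay between the other classes after 96 h, with 74.8 CPM of Csf1 (57.4 to 95.9). Over all nuclei with no class call the library levels were 8.67, 56.9, 88.3 and 31.1 CPM at the 4 times, against 14.8 CPM in the GFP-negative library.

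The same nuclei were also divided by injury transcripts in place of clusters. The pool was still set by class, and Havcr1 and Vcam1 are markers of the injured tubule list. The division is therefore not independent of the classes. Proximal and injured tubule-like nuclei were pooled and divided by whether they held a UMI of Havcr1 (the kidney injury molecule KIM-1) or Vcam1 (a leukocyte adhesion molecule). In nuclei with such a UMI the Csf1 level was 167 CPM, against 5.51 CPM in those without, in the library without injury (42 and 2322 nuclei; ratio 30.2, 15.7 to 56.9). The ratio was 4.04 after 64 h (3.08 to 5.28), 2.69 after 96 h (1.63 to 4.37) and 9.12 after 28 d (5.73 to 14.4). Nuclei with such a UMI were also deeper, with a median of 2146 against 1414.5 UMIs after 64 h. After each nucleus was thinned to 400 UMIs the ratio was 3.85 (1.19 to 9.71), 3.13 (1.31 to 6.77) and 9.84 (1.86 to 33.7) in the IRI libraries, while the library without injury kept too few such nuclei (7) to read.

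In the GFP-negative library Csf1 was found outside the proximal tubule. Fibroblast and mural-like nuclei stood at 49.1 CPM (30.4 to 75.1) and endothelium-like nuclei at 47.1 CPM (29.2 to 72.0), against 1.17 CPM (1 UMI) in proximal tubule-like nuclei. The first pair did not differ beyond their intervals. The 119 macrophage and dendritic-like nuclei held 0 Csf1 UMIs, with a limit of 44.3 CPM at 3 UMIs and an exact interval up to 54.5 CPM, so a level like those of the other classes was not excluded at this depth.

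**Figure D1:**
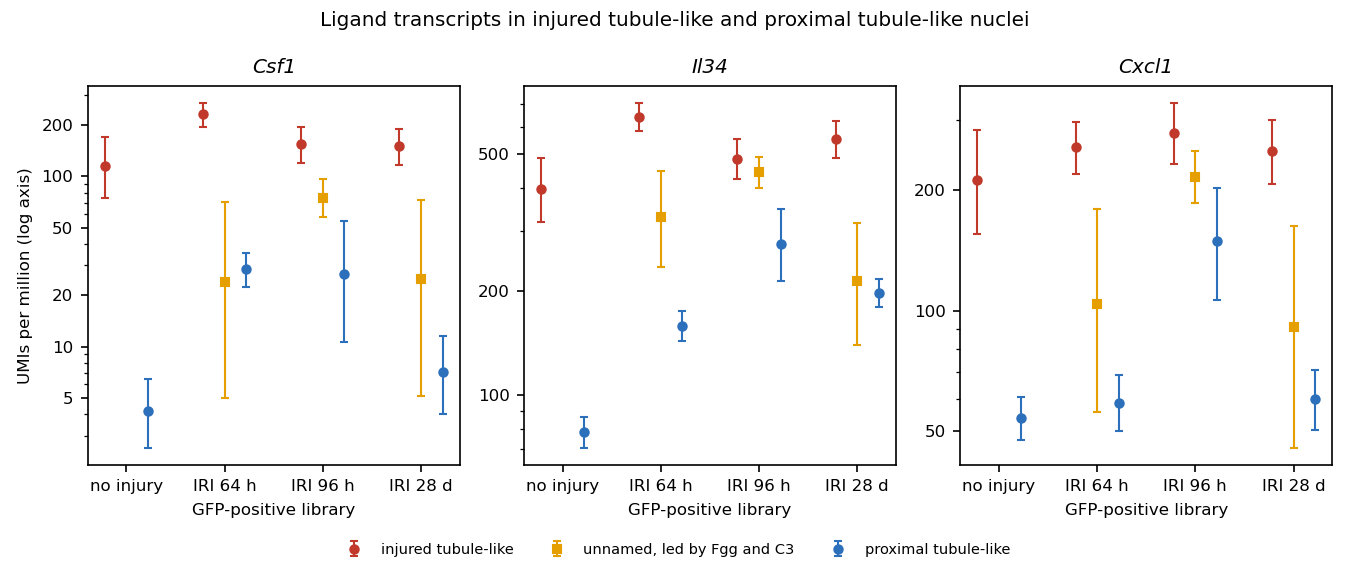
Levels of Csf1, Il34 and Cxcl1 in CPM (log axis) in injured tubule-like, Fgg and C3-led and proximal tubule-like nuclei of the 4 GFP-positive libraries; points are 1 library each and bars are 95% Poisson counting intervals. The injured tubule-like points sit above the proximal tubule-like points in each library, by the least after 96 h for Il34 and Cxcl1.

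Il34 encodes the other CSF1R ligand and lies on chromosome 8 (110741829 to 110805924). Unlike Csf1 it was already spread along the uninjured nephron. In the GFP-positive library without injury its level was 304 CPM in thin limb-like nuclei (246 to 372), 210 CPM in thick ascending limb-like nuclei (167 to 260), 78.1 CPM in proximal tubule-like nuclei (70.4 to 86.4), 65.7 CPM in connecting tubule-like nuclei (36.8 to 108) and 37.2 CPM in distal convoluted tubule-like nuclei (16.1 to 73.4). Thin limb-like and thick ascending limb-like nuclei overlapped slightly in their intervals, and both lay above the proximal tubule. In the GFP-negative library thick ascending limb-like nuclei stood at 267 CPM (228 to 311), collecting duct principal-like nuclei at 152 CPM (122 to 187) and endothelium-like nuclei at 8.98 CPM (4 UMIs in 783 nuclei).

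In proximal tubule-like nuclei Il34 stood at 78.1 CPM without injury, 159 after 64 h (144 to 175), 274 after 96 h (215 to 346) and 198 after 28 d (180 to 217). The ratios to the library without injury were 2.04 (1.77 to 2.35), 3.52 (2.69 to 4.53) and 2.53 (2.20 to 2.92). All 3 IRI libraries lay above the uninjured one, the 28 d library included. Where nuclei were classed by marker sums with no clustering the 64 h ratio was 1.09 (0.804 to 1.45).

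The 28 d difference of Il34 was also seen within clusters. In the Slco1a1-led cluster, whose leading genes include Slc7a13 of the last proximal segment, Il34 stood at 281 CPM after 28 d (238 to 329) and 108 CPM without injury (94.6 to 123). In the Slc5a12-led cluster, whose leading genes include Slc5a2, the glucose transporter of the first segment, the levels were 110 CPM after 28 d (85.2 to 140) and 40.2 CPM without injury (29.1 to 54.2). In the Gm26870-led cluster they were 202 CPM after 28 d (169 to 240) and 44.5 CPM without injury (24.3 to 74.7). The Cyp7b1-led cluster had 193 CPM after 28 d (145 to 252) and 88.9 CPM without injury (66.6 to 116), and the Folh1-led cluster 279 CPM after 28 d (206 to 370) and 127 CPM without injury (81.1 to 188). The intervals did not overlap in any of these clusters. The remaining one, led by Slc5a2, held 25 nuclei and 0 Il34 UMIs after 28 d. At 64 h the Folh1-led cluster stood at 177 CPM (159 to 195) against 127 CPM without injury, the Slc5a12-led one at 61.9 CPM (34.6 to 102) against 40.2 CPM, the Gm26870-led one at 78.3 CPM (37.6 to 144) against 44.5 CPM and the Slco1a1-led one at 117 CPM (42.8 to 254) against 108 CPM. The intervals overlapped in each of these 4. The Cyp7b1-led and Slc5a2-led clusters held 11 and 7 nuclei after 64 h, too few to read.

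Injured tubule-like nuclei held the higher Il34 level in every GFP-positive library. It was 396 CPM without injury, 640 after 64 h, 485 after 96 h and 553 after 28 d, which is 5.07 times (3.96 to 6.43), 4.03 times (3.52 to 4.61), 1.77 times (1.35 to 2.34) and 2.79 times (2.39 to 3.27) the proximal tubule-like level of the same library. With stricter limits on nuclei (400 genes and 5% mitochondrial UMIs) the 96 h ratio was 5.12 (3.26 to 7.95). The Fgg and C3-led cluster, at 443 CPM, overlapped the injured tubule-like class after 96 h. In thick ascending limb-like nuclei Il34 was 1.30 times the uninjured level after 64 h (0.920 to 1.82) and 1.03 times after 28 d (0.615 to 1.67), with intervals that hold 1. Intercalated-like nuclei had 231 CPM after 64 h (17 UMIs) and 199 CPM after 28 d (13 UMIs), against 19.4 CPM without injury (2 UMIs).

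The injured tubule-like clusters differed in Il34 after 96 h. The Vcam1-led over Havcr1-led ratio was 1.04 after 64 h (0.812 to 1.32), 2.36 after 96 h (1.69 to 3.24; 997 and 423 CPM) and 1.68 after 28 d (0.946 to 3.30). The same ratio for Csf1 was 1.06, 1.84 and 2.80, with intervals that hold 1 at each time. For Cxcl1 it was 1.79 after 96 h (1.09 to 2.83), and its intervals held 1 after 64 h and 28 d. Within the Vcam1-led cluster alone, a choice made after seeing the data, Il34 stood at 662, 997 and 571 CPM in the 3 IRI libraries against 408 CPM without injury (ratios 1.62, 1.18 to 2.21; 2.44, 1.69 to 3.50; and 1.40, 1.09 to 1.81). For the whole class the 96 h ratio was 1.22 (0.951 to 1.59). Csf1 in the Vcam1-led cluster stood at 241, 259 and 158 CPM against 106 CPM (ratios 2.28, 1.28 to 4.14; 2.45, 1.13 to 5.09; and 1.49, 0.912 to 2.54), where the whole class gave 1.34 after 96 h (0.837 to 2.20).

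Cxcl1, a chemokine gene for neutrophils on chromosome 5 (90891241 to 90893115), stood apart in the thin limb. In thin limb-like nuclei its level was 16.2 CPM without injury (5.25 to 37.7; 5 UMIs), 482 after 64 h (368 to 619; 61 UMIs in 23 of 78 nuclei), 183 after 96 h (94.7 to 320; 12 UMIs) and 53.3 after 28 d (19.6 to 116; 6 UMIs). The ratios to the library without injury were 29.8, 11.3 (3.71 to 41.0) and 3.30 (0.838 to 13.7). The 64 h and 96 h levels lay clear of the uninjured one and the 28 d level did not. Classing by marker sums gave 3.30 (1.92 to 5.85) after 64 h.

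In proximal tubule-like nuclei Cxcl1 differed less with time. The levels were 53.9 CPM without injury, 58.8 after 64 h, 149 after 96 h and 60.1 after 28 d, with ratios of 1.09 (0.889 to 1.34), 2.76 (1.92 to 3.88) and 1.12 (0.899 to 1.38). Only the 96 h interval left out 1, and after thinning to 400 UMIs that ratio was 1.84 (0.917 to 3.45). Within the Folh1-led cluster Cxcl1 stood at 63.6 CPM after 64 h (53.5 to 75.1) and 153 CPM without injury (102 to 220). In the Gm26870-led cluster it stood at 47.0 CPM (17.3 to 102) and 124 CPM (88.2 to 170), and in the Slc5a12-led cluster at 24.8 CPM (9.08 to 53.9) and 22.4 CPM (14.4 to 33.4). Only the Folh1-led intervals were apart among these 3, with the 64 h library lower. When injured tubule-like nuclei were pooled with the class, the ratio was 1.65 after 64 h (1.41 to 1.93) and 1.52 after 28 d (1.28 to 1.80).

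Injured tubule-like nuclei had 212 CPM of Cxcl1 without injury (155 to 283), 257 after 64 h, 278 after 96 h and 250 after 28 d. These were 3.93 (2.81 to 5.40), 4.37 (3.50 to 5.45), 1.87 (1.30 to 2.74) and 4.17 (3.22 to 5.38) times the proximal tubule-like levels. The ratios of the whole class to its uninjured nuclei were 1.21, 1.31 and 1.18, with intervals that hold 1, but the class differed in its mix of clusters. Within the Vcam1-led cluster Cxcl1 stood at 304, 459 and 243 CPM in the IRI libraries against 221 CPM without injury, with ratios of 1.37 (0.873 to 2.15), 2.07 (1.20 to 3.49) and 1.10 (0.769 to 1.59). The 96 h level of that cluster was thus the one apart from its uninjured level. Thick ascending limb-like nuclei stood at 4.32 to 9.86 CPM in the GFP-positive libraries where at least 20 nuclei were seen. These levels rest on 3 UMIs without injury, 1 of 231457 after 64 h and 1 after 28 d. An unnamed cluster led by Clu and Lcn2 had thick ascending limb as its best marker list and injured tubule as its next. It held 8 Cxcl1 UMIs of 299811 after 64 h, 9 of 174388 after 96 h and 2 of 92502 after 28 d.

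Cxcl1 also differed with the sort in some classes. Proximal tubule-like nuclei without injury had 53.9 CPM when sorted as GFP positive (258 UMIs) and 4.66 CPM when sorted as GFP negative (4 UMIs), a ratio of 11.6 (4.46 to 42.7). In distal convoluted tubule-like nuclei the levels were 41.9 CPM and 3.98 CPM (9 UMIs and 1 UMI; ratio 10.5, 1.46 to 461). In the Cyp7b1-led cluster, which supplied 209 of the 383 GFP-negative proximal tubule-like nuclei, they were 15.1 CPM and 3.63 CPM, with a ratio of 4.16 (0.861 to 39.6). In thin limb-like nuclei they were 16.2 CPM and 17.4 CPM (5 UMIs and 1 UMI; ratio 0.927, 0.104 to 43.9), and in connecting tubule-like nuclei 26.3 CPM and 18.4 CPM (6 and 2 UMIs; ratio 1.43, 0.256 to 14.5), too few to give a direction. The other well-counted ligand did not follow, since Il34 stood at 78.1 CPM in GFP-positive and 85.1 CPM in GFP-negative proximal tubule-like nuclei.

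Six2 itself was also higher in the GFP-positive sort. It had 161 UMIs in the GFP-positive library without injury and 2 in the GFP-negative one, and the Six2-TGC transgene uses Six2 regulatory sequence. Among 13371 genes compared over 40 sums of nuclei by class and library, Six2 had the highest correlation with Cxcl1 (Pearson r = 0.814), followed by Sh3d19 (0.810) and Pawr (0.799). These sums share libraries and depth, and the correlation is a description. In proximal tubule-like nuclei Six2 stood at 4.89 (3.86 to 6.24), 6.96 (4.63 to 10.3) and 3.66 (2.84 to 4.75) times the uninjured level in the 3 IRI libraries, where Cxcl1 had intervals that hold 1 after 64 h and 28 d. In thin limb-like nuclei Six2 stood at 23.7 CPM after 64 h (3 UMIs) and 16.2 CPM without injury (5 UMIs), where Cxcl1 stood at 482 and 16.2 CPM. The Six2 UMIs in the GFP-positive nuclei cannot be told apart from reads of the transgene. Its part in the Cxcl1 levels was not tested.

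**Figure D2:**
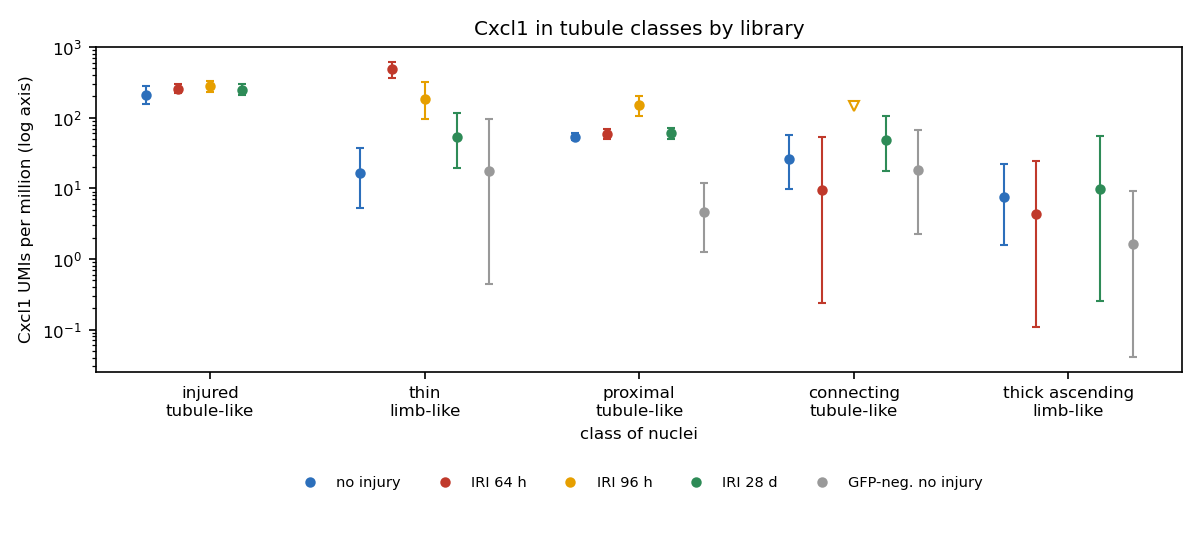
Cxcl1 level in CPM (log axis) in 5 tubule classes of the 5 libraries, with 95% Poisson intervals; classes with under 20 nuclei are left out, and the open triangle marks 0 UMIs, drawn at the level of 3 UMIs. Thin limb-like nuclei reach 482 after 64 h against 16.2 without injury, and injured tubule-like nuclei, a mix of 2 clusters that differs between libraries, lie between 212 and 278 in the 4 GFP-positive libraries.

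Ccl2, a monocyte chemokine gene on chromosome 11 (82035571 to 82037453), had 94 UMIs in all, and 63 of them were in the 28 d library. The other GFP-positive libraries held 11, 9 and 8, in time order, and the GFP-negative one 3. At 28 d, 40 of the 63 UMIs were in injured tubule-like nuclei (20 of 329 nuclei; 87.1 CPM, 62.2 to 119), all in the Vcam1-led cluster. Proximal tubule-like nuclei of that library had 8 UMIs (3.53 CPM), which gives a ratio of 24.6 (11.4 to 60.9). In injured tubule-like nuclei of the other libraries Ccl2 stood at 4.61 CPM without injury (1 UMI), 10.1 after 64 h (7 UMIs) and 10.7 after 96 h (5 UMIs). The 28 d level of the class was 18.9 times its level without injury (3.20 to 765). With classes taken from marker sums the ratio after 28 d was 4.73 (0.692 to 27.9), with an interval that holds 1.

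Most of these UMIs came from few nuclei. At 28 d, 12 nuclei with 2 or more Ccl2 UMIs held 38 of the 63, and the highest nucleus held 7. An annotated gene on the opposite strand, Gm17268, covers all 1883 bases of Ccl2. It was the gene most like Ccl2 over 40 sums of nuclei by class and library (Pearson r = 0.791), and it was the first leading gene of the Vcam1-led cluster, from whose making it was not kept out. In injured tubule-like nuclei after 28 d it had 177 UMIs in 22 nuclei, and 16 of the 20 nuclei with Ccl2 also held it. Whether reads were counted by strand is not given in the sources used here. The part of Gm17268 in the Ccl2 counts was not tested.

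Lif, the gene for leukaemia inhibitory factor on chromosome 11 (4257557 to 4272514), was read in few nuclei and mainly in another class. Of its 43 UMIs, 27 were in an unnamed cluster led by Clu and Lcn2, whose best marker list was thick ascending limb and whose next was injured tubule. In time order it held 11, 282, 386 and 127 nuclei of the GFP-positive libraries. Its Lif level was 36.7 CPM after 64 h (18.3 to 65.6; 11 UMIs in 8 nuclei) and 91.7 CPM after 96 h (52.4 to 149; 16 UMIs in 11 nuclei). At 28 d it held 0 UMIs, with a limit of 32.4 CPM at 3 UMIs and an exact interval up to 39.9 CPM. Thick ascending limb-like nuclei of the 64 h library held 0 Lif UMIs, so the Clu and Lcn2-led level there was at least 2.83-fold higher, counted against 3 UMIs over that class. Relative to thick ascending limb-like nuclei of the 64 h library, the cluster held more Icam1 (at least 6.43-fold), Osmr (at least 3.35-fold), Clu (13.2 times), Lcn2 (9.84 times) and Dcdc2a (8.88 times), and less Tnfsf10 (0.290 times) and Mif (0.366 times). Clu, Lcn2 and Dcdc2a are leading genes of the cluster, so their ratios describe how it was made. Injured tubule-like nuclei held 2 Lif UMIs after 28 d and 0 in the other GFP-positive libraries.

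**Figure D3:**
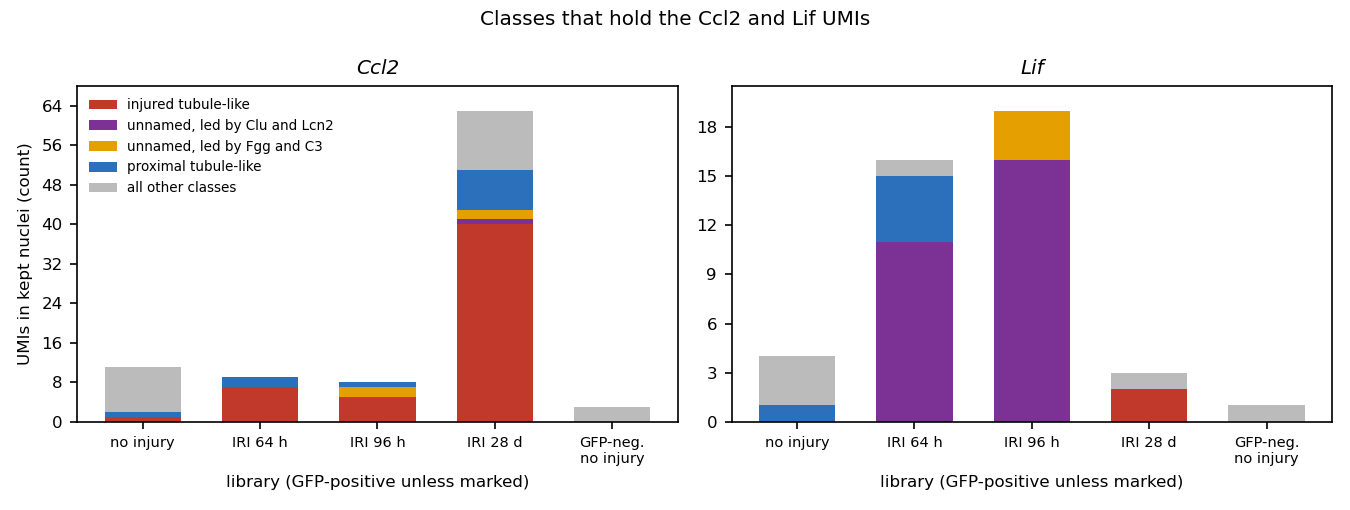
UMIs of Ccl2 and Lif in kept nuclei of each library (counts, not scaled for depth), stacked by the class that holds them. At 28 d 40 of 63 Ccl2 UMIs lie in injured tubule-like nuclei, and after 64 h and 96 h 11 of 16 and 16 of 19 Lif UMIs lie in the Clu and Lcn2-led cluster.

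Cx3cl1, the fractalkine gene, lies on chromosome 8 (94772009 to 94782427). Its level in proximal tubule-like nuclei was 12.9 CPM without injury (62 UMIs), 14.4 after 64 h (38), 19.1 after 96 h (5) and 7.51 after 28 d (17). The ratios were 1.11 (0.724 to 1.69), 1.47 (0.462 to 3.62) and 0.580 (0.318 to 1.00), so no interval lay clear of 1. Over all nuclei with no class call the levels were 11.9 CPM without injury (9.49 to 14.7), 15.1 after 64 h (11.7 to 19.2), 29.1 after 96 h (21.9 to 38.0) and 11.1 after 28 d (8.03 to 15.1), so the 96 h library lay above the uninjured one (ratio 2.45, 1.71 to 3.48). Injured tubule-like nuclei stood at 9.21, 18.7, 29.9 and 2.18 CPM in the same order, with 1 UMI behind the last and intervals that overlap those of proximal tubule-like nuclei. At 96 h the Clu and Lcn2-led cluster stood at 51.6 CPM (23.6 to 98.0) and the Fgg and C3-led cluster at 31.4 CPM (20.5 to 46.0). In the GFP-negative library the highest level among classes with at least 10 UMIs was in fibroblast and mural-like nuclei, at 70.2 CPM (47.4 to 100), followed by endothelium-like nuclei at 22.4 CPM (10.8 to 41.3).

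Il18, the gene for interleukin-18 on chromosome 9 (50554827 to 50581840), was at the limit of these data with 43 UMIs in all. Proximal tubule-like nuclei held 12 of the 13 UMIs without injury, 8 after 64 h, 0 after 96 h and 5 after 28 d. Their levels were 2.51, 3.04, 0 and 2.21 CPM. For the 0 after 96 h the limit is 11.4 CPM at 3 UMIs, with an exact interval up to 14.1 CPM. The 64 h ratio was 1.21 (0.430 to 3.22) and the 28 d ratio 0.882 (0.243 to 2.69), so both directions lie within the intervals. Bco2 and Tex12 overlap Il18 on the other strand.

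Counted over the set, 6 of the 8 genes reached 10 UMIs in the proximal tubule-like sums of each comparison with the library without injury. At 64 h, 2 of the 6 were at least 1.5-fold higher and 1 lower, while 25.4% and 15.5% of all genes measured were. At 96 h it was 3 higher and 1 lower, against 36.1% and 22.1% of all genes, and after 28 d 2 higher and 2 lower, against 16.8% and 12.0%. The 1 lower after 96 h was Il18 with 0 UMIs, whose limit of 11.4 CPM lies above its uninjured level, so no lower level is shown. The rule counts sums at 0 in the same way over all genes. The counts after 64 h and 96 h were near the shares over all genes. With a 2-fold threshold and an interval that leaves out 1, injured tubule-like over proximal tubule-like nuclei gave 3 of 6 higher without injury, 4 of 6 after 64 h, 1 of 5 after 96 h and 4 of 6 after 28 d, with 0 lower at each time. Csf1 was among them at each time, Il34 and Cxcl1 at each time but 96 h, Csf1r after 64 h (6 and 5 UMIs) and Ccl2 after 28 d. The share of all genes higher by that rule was 6.23%, 11.0%, 5.38% and 8.45%, and the share lower was 4.02%, 5.26%, 3.01% and 6.30%. The median log2 ratio of the measured members was 1.26, 2.07, 0.82 and 1.77, against -0.02, 0.14, 0.09 and -0.02 over all genes.

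Csf1r encodes the receptor tyrosine kinase on which both growth factors act, and it lies on chromosome 18 (61100598 to 61132149). Its highest level among classes of at least 20 nuclei with 10 or more UMIs was in macrophage and dendritic-like nuclei of the GFP-negative library, at 207 CPM (113 to 347; 14 UMIs in 11 of 119 nuclei). Those nuclei held UMIs in 22 of the 23 gene entries that match the macrophage and dendritic marker symbols, summed to 9728 CPM. A symbol can match more than 1 entry. In the 28 d library the 35 macrophage and dendritic-like nuclei stood at 104 CPM (28.3 to 266; 4 UMIs). The remaining GFP-positive libraries held 3 or 4 such nuclei each, too few to read.

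A proximal tubule-like cluster came next. Nuclei led by Cyp7b1, Slc22a19 and Slc22a7, genes of the last proximal segment, had 116 CPM of Csf1r when sorted as GFP positive without injury (90.0 to 146; 69 UMIs in 55 of 219 nuclei) and 151 CPM when sorted as GFP negative (120 to 187; 83 UMIs in 66 of 209 nuclei). The intervals of both sorts overlapped that of macrophage and dendritic-like nuclei. The ratio between the sorts was 0.768 (0.550 to 1.07). Of the nuclei with a Csf1r UMI, 55 of 119 in the GFP-positive library and 66 of 121 in the GFP-negative one lay in this cluster, while the macrophage and dendritic-like class held 1 and 11.

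The rest of the proximal tubule had little. In the GFP-positive library without injury, Csf1r stood at 7.91 CPM in the Slco1a1-led cluster (4.61 to 12.7), 1.87 CPM in the Slc5a12-led cluster, 2.12 CPM in the Slc5a2-led cluster and 10.5 CPM in the Folh1-led cluster (1.28 to 38.1), with 0 UMIs in the Gm26870-led one. Thin limb-like nuclei were higher, at 51.8 CPM in the GFP-positive library (29.6 to 84.1) and 122 CPM in the GFP-negative one (49.1 to 252). Endothelium-like nuclei of the GFP-negative library, which should lack the receptor, stood at 6.73 CPM (3 UMIs in 783 nuclei; median 520 UMIs, against 2626 in the GFP-negative Cyp7b1-led cluster).

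The macrophage markers of the Cyp7b1-led nuclei were low. The 23 marker entries summed to 43.6 CPM in the GFP-positive and 65.3 CPM in the GFP-negative library. In macrophage and dendritic-like nuclei they summed to 9728 CPM. The GFP-negative nuclei of the cluster held UMIs in 17 of the 23 entries. Without the nuclei that held any such marker the cluster stood at 113 CPM in the GFP-positive library (85.9 to 146) and 158 CPM in the GFP-negative one (124 to 199). Hmgxb3, a gene on the opposite strand that overlaps Csf1r by 873 bases, stood in this cluster at 53.7 CPM in the GFP-positive and 76.2 CPM in the GFP-negative library, and at 44.7 and 48.1 CPM over all their nuclei. Both genes were seen in 11 of the 55 and 10 of the 66 Csf1r nuclei. Its part in the Csf1r counts was not tested. Lacc1 (r = 0.737), E2f2 (0.701) and Frzb (0.691) were the genes most like Csf1r over the 40 sums.

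Csf1r of proximal tubule-like nuclei was lowest after 64 h. The class stood at 19.0 CPM (91 UMIs) without injury and at 1.90 (5 UMIs), 19.1 (5 UMIs) and 11.9 CPM (27 UMIs) in the IRI libraries, with ratios of 0.0998 (0.0317 to 0.242), 1.00 (0.318 to 2.43) and 0.628 (0.393 to 0.974). The Cyp7b1-led cluster held 219, 11, 20 and 183 nuclei at those times. Its share of the class was thus smallest after 64 h, while the class level did not follow that share after 96 h, when the ratio was 1.00 with a wide interval, or after 28 d. Within the cluster Csf1r had 0 UMIs after 64 h, with a limit of 152 CPM at 3 UMIs and an exact interval up to 187 CPM, and 125 CPM after 96 h (2 UMIs). At 28 d it had 61.9 CPM (36.0 to 99.1), 0.535 times the uninjured level (0.295 to 0.919). The low 64 h value of the class therefore cannot be told apart from the near absence of this cluster.

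**Figure D4:**
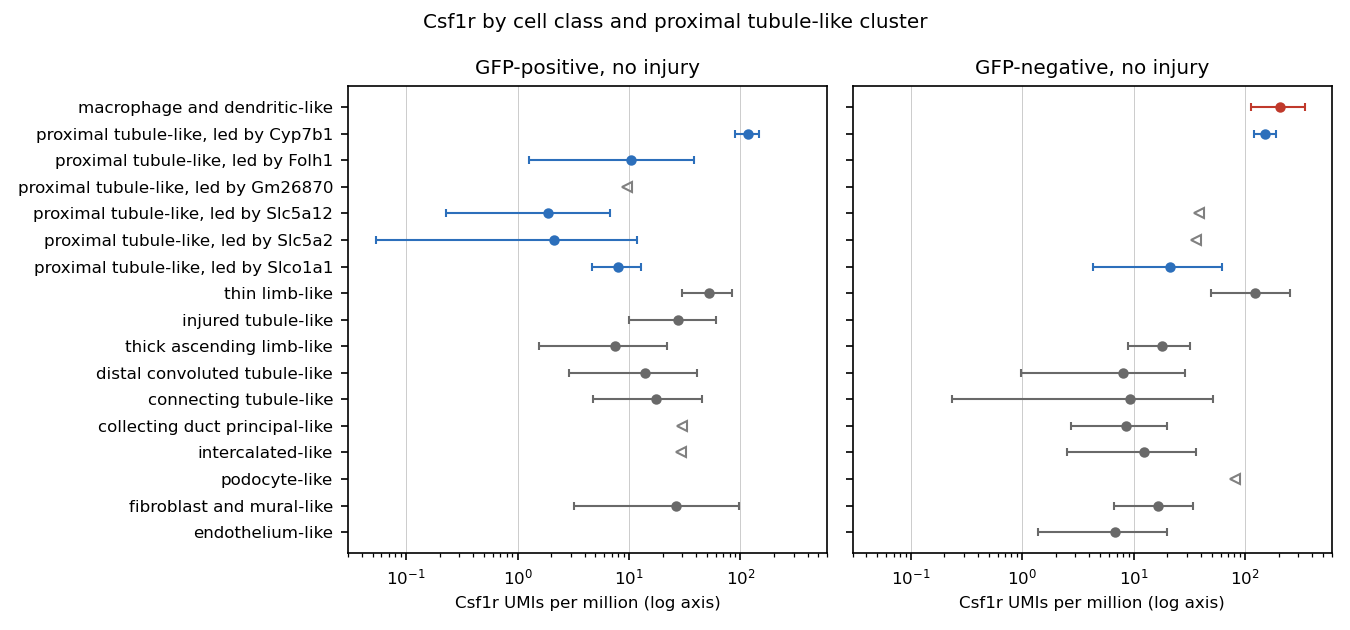
Csf1r level in CPM (log axis) by cell class and proximal tubule-like cluster in the GFP-positive (left) and GFP-negative (right) libraries without injury; bars are 95% Poisson intervals, and open triangles mark 0 UMIs, drawn at the level of 3 UMIs. Macrophage and dendritic-like nuclei (207) and the Cyp7b1-led cluster (116 and 151) lie to the right of the other proximal tubule-like clusters.

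The other genes of these pathways, 96 listed and 94 found, were counted by the same 2-fold rule. The 8 genes above and the tubule injury genes were left out, except Spp1, which is also on the cytokine list. In proximal tubule-like nuclei 7 of 44 measured genes were higher and 3 lower after 64 h (9.96% and 5.51% of all genes), 13 and 2 of 42 after 96 h (13.8% and 2.96%) and 4 and 1 of 45 after 28 d (4.55% and 2.56%). The list of NF-kB, STAT3 and feedback genes held 2, 7 and 1 of the higher ones, of 18 measured, with median log2 ratios of 0.31, 1.07 and 0.14 against 0.16, 0.23 and 0.08 over all genes. Among tubule injury genes 7 of 11, 5 of 8 and 6 of 12 were higher at the 3 times and 1, Itgb6, was lower after 28 d (0.470 times).

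By name, the largest differences of proximal tubule-like nuclei after 64 h were in Osmr, a receptor of oncostatin M (11 and 1 UMIs; ratio interval 2.91 to 860), Lcn2 (at least 8.48-fold higher), Krt20 (17.7 times), Krt18 (11.6 times) and Havcr1 (10.4 times), the last 4 of them injury genes. Tnfsf10 (TRAIL), Kitl (stem cell factor) and Mdk (midkine) stood at 0.173, 0.267 and 0.355 times the uninjured level. After 96 h Havcr1 stood at 23.5 times, Cebpb at 15.7 times, Clcf1 and Krt20 at 13.7 times and Bcl3 at 8.35 times, while Il15 and Ccl28 stood at 0.268 and 0.336 times. Cebpb encodes a transcription factor of the inflammatory response, Clcf1 a gp130 cytokine and Bcl3 an NF-kB cofactor. After 28 d Cd44 stood at 19.0 times (9 and 1 UMIs), Clcf1 at 5.11 times, Vcam1 at 4.58 times, Sox4 at 3.93 times and Cebpb at 3.73 times, and Ackr4, a scavenging chemokine receptor, at 0.361 times.

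Between injured tubule-like and proximal tubule-like nuclei, 14 genes were higher and 1 lower of 43 without injury, 21 and 2 of 44 after 64 h, 6 and 0 of 35 after 96 h and 21 and 1 of 45 after 28 d. By the same rule 6.23%, 11.0%, 5.38% and 8.45% of all genes were higher and 4.02%, 5.26%, 3.01% and 6.30% lower. Unlike the 8 genes, the pathway genes were not kept out of the clustering (Cxcl10 is a leading gene of the Vcam1-led cluster), so the counts describe the clusters. The list of NF-kB, STAT3 and feedback genes held 9 of 18, 12 of 18, 4 of 17 and 12 of 17 of them, all higher. Its median log2 ratios were 1.66, 1.14, 0.72 and 2.21, against -0.02, 0.14, 0.09 and -0.02 over all genes. Of the other chemokines 3 of 6, 4 of 7, 1 of 5 and 3 of 6 were higher.

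In the library without injury Cxcl2 stood at 154 times the proximal tubule-like level (14 and 2 UMIs; 35.5 to 1400), Cxcl10 at 49.6 times, Clcf1 at 25.7 times, Birc3 at 17.3 times and Tnfaip3 at 9.65 times. Cxcl2 and Cxcl10 encode chemokines for neutrophils and T cells, and Birc3 and Tnfaip3 are known NF-kB targets that feed back on the pathway. After 64 h Ccl5 stood at 28.5 times (15 and 2 UMIs), Ptprz1, another receptor of IL-34, at 17.1 times (9 and 2 UMIs), Tgfb1 at 12.4 times, Cxcl2 at 11.4 times and Cxcl10 at 10.2 times, while Ackr4 (1 and 25 UMIs) and Il15 stood at 0.152 and 0.488 times. After 96 h Cxcl10 was at least 2.24-fold higher, and Relb, Birc3, Irf1 and Nfkb1 stood at 3.81, 3.64, 2.80 and 2.70 times. After 28 d Casp4, an inflammatory caspase, stood at 88.7 times (36 and 2 UMIs; 22.8 to 760), Osmr at 41.9 times (17 and 2 UMIs), Cxcl2 at 16.9 times, Birc3 at 15.8 times and Tgfb1 at 14.8 times. Ccl28, a mucosal chemokine gene, went the other way, at 0.174 times without injury (3 and 380 UMIs) and 0.313 times after 28 d.

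The genes most like each ligand over the 40 sums were C3 (r = 0.791), Vcam1 (0.776) and B4galnt2 (0.766) for Csf1, and Sema3c (0.820), Fat1 (0.790) and Sema5a (0.779) for Il34. Vcam1 and Sema5a are also markers of the injured tubule list, by which the class was named. For Cx3cl1 no correlation passed 0.574, that of Acot7.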

How the data were processed

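The authors deposited 1 matrix of raw UMI (unique molecular identifier) counts for each library. Nuclei were sorted for DAPI and then GFP and made into Chromium v2 libraries per the labels' protocols, and reads were aligned to a pre-mRNA genome, so that introns count, per the series' design text. The submitters' processing notes name bcl2fastq 2.17, STAR 2.5.1b, Cell Ranger 2.1 and mm10.

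A nucleus was kept from 200 genes and up to 10% mitochondrial UMIs, which left out 306 after 96 h and 1 in the GFP-negative library. Scanpy 1.11.5 clustered the rest without the 8 genes (2000 variable genes, 30 principal components, 15 neighbours, Leiden resolution 1.0, no integration). Of 24 clusters, 18 were named from 15 marker lists, with limits (score margin 0.3, at least 3 markers detected) set after their profiles were seen, so the names are rebuilt ones. Scrublet called 80 GFP-negative nuclei and at most 2 in any other library, which was taken as not having worked there, and no nucleus was removed as a doublet.

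UMIs were summed per class and library. No ratio was formed where both sums held at most 3 UMIs, and against 0 UMIs a bound was taken at 3 UMIs over the class. Genes were counted from 10 UMIs in the compared sums together. All 8 genes were named, with the 5 largest and 5 smallest ratios of other pathway and injury genes that passed the 2-fold rule in the proximal tubule and injured tubule comparisons, and the 3 genes most correlated in log2(CPM + 10) over sums of at least 50 nuclei. The members and lists were chosen with earlier results of these data known. Gene positions are from GENCODE on GRCm38 (8 of 8 matched by Ensembl ID), promoter sequences from RefSeq (5 of 8 used). Alternatives were other clusterings, classes, depths, filters and scalings, with edgeR 4.0.16 for TMM factors only. Intervals cover counting error only. The ratio interval was tested on Poisson counts simulated for 1 comparison, proximal tubule-like nuclei after 64 h over no injury. There 96.2% of intervals held the simulated ratio, which checks the calculation only. The simulated counts follow the interval's own model, while the UMIs of a gene can gather in few nuclei. By the 2-fold rule, 32.0% of genes simulated 2-fold higher and 40.8% of those simulated at 0.5-fold were called. The level intervals and the bounds against 0 UMIs were not tested.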

Additional observations from a re-analysis of the deposited data

How the results depend on the processing

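Of 462 values recomputed under other settings, 379 stayed within the counting interval of the value reported, or within 1.5 times for a count of members, 83 did not and 0 changed direction. The moved values follow. "Members" means those at least 1.5-fold higher or lower in proximal tubule-like nuclei after IRI, and "contrast" means injured tubule-like over proximal tubule-like nuclei. Shares over all genes are given for the 2-fold threshold and for the pool of proximal and injured tubule-like nuclei. The other counts of members are given without them and are not read as a result. With a 2-fold threshold 1 of 6 members was higher and 0 lower at 28 d, against 6.71% and 5.36% of all genes. With Havcr1 alone as the split the Csf1 ratio was 12.1 without injury and 4.80 at 28 d, and with Vcam1 alone 6.0 at 64 h. With proximal and injured tubule-like nuclei pooled, 4 of 7 members were higher at 64 h and 28 d and 1 was lower at 28 d. The shares of all genes were 29.9%, 18.7% and 11.1%. The ratios to no injury in this pool were 1.65 at 64 h and 1.52 at 28 d for Cxcl1. They were 2.82 at 64 h for Il34 and 3.47 at 28 d for Csf1. With the Fgg and C3-led cluster added, a choice made after seeing the data, they were 1.66, 1.52, 2.86 and 3.45, Il34 was 4.66 at 96 h, 4, 5 and 4 members were higher at the 3 times, 2 were lower at 96 h and 1 at 28 d. Over all nuclei Cxcl1 was 1.80 at 64 h and 1.65 at 28 d, Il34 2.56 at 64 h and Csf1 3.58 at 28 d, with 5, 6 and 4 members higher and 0 lower at 28 d. TMM scaling, which shifts all genes by -0.21, -0.46 and -0.11 on the log2 scale at the 3 times, gave Il34 1.76 at 64 h and 2.56 at 96 h. With nuclei limited to 400 or more genes and up to 5% mitochondrial UMIs, Csf1 was 12.9 at 64 h, 5 members were higher at 96 h, and the contrast was 6.87 at 64 h and 3.36 at 96 h for Cxcl1 and 4.79 and 5.12 for Il34. Classes from marker sums gave Il34 1.09 at 64 h and 2.16 at 28 d, Csf1 20.2 at 96 h and 6.99 at 28 d, Cxcl1 3.30 in thin limb-like nuclei at 64 h, and 1 member higher at 64 h. Their contrast was 14.6 (no injury) and 4.64 (28 d) for Csf1, 1.69 and 1.61 for Il34, 1.95 (64 h), 1.29 (96 h) and 2.5 (28 d) for Cxcl1 and 4.73 (28 d) for Ccl2. With no minimum of UMIs 4 members were higher at 64 h and 2 lower at 96 h. At resolution 0.5 the contrast was 1.65 (no injury) and 3.14 (28 d) for Cxcl1, 2.26 (28 d) for Il34 and 5.01 (64 h) for Csf1. At resolution 2.0 Il34 was 1.57 at 64 h and the 64 h contrast 12.2 for Csf1, 5.62 for Il34 and 6.48 for Cxcl1. Thinned to 400 UMIs, Cxcl1 was 1.84 and Il34 4.82 at 96 h, 1 member was higher at 28 d, and the contrast was 2.39 (no injury) for Cxcl1, 4.99 (64 h) for Csf1, 7.29 (no injury) and 5.30 (64 h) for Il34 and 66.2 (28 d) for Ccl2. With the Vcam1-led cluster alone in place of injured tubule-like nuclei, chosen after seeing the data, the 96 h ratios to no injury were 2.45 for Csf1, 2.44 for Il34 and 2.07 for Cxcl1. Without nuclei holding an immune marker UMI 0 members were lower at 96 h and 1 at 28 d, and without the 5% deepest nuclei 1 was higher at 28 d. The causes were not tested. Without Scrublet calls, likewise chosen after seeing the data, Csf1r of the GFP-negative Cyp7b1-led cluster was 150 CPM. No paired analysis was possible because each group is 1 library, and for the same reason no replicate could be left out. Depth limits Lif, Il18, Ccl2 outside the 28 d library, and all classes at 96 h with few nuclei.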
